A study of Mus musculus with 20 samples.

Results

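The change in poly(A) RNA between the mature egg and the 2-cell embryo was followed gene by gene in untreated wild-type C57BL/6J mice. 2-cell embryos in G2 of the cell cycle (3 samples) were set against MII eggs (3 samples), which are held at metaphase of the second meiotic division. Each sample was a batch of 10 to 15 eggs or embryos, and the eggs had been released from dbcAMP and matured in culture before in vitro fertilization. The same fit by the authors held C57BL/6J zygotes in G1 (3 samples) and in G2 (3 samples). Hybrid 2-cell embryos in G2 (2 samples) and G1 zygotes (3 samples), called B6CASTF1 in the labels, served as a second set of libraries. By its title, the series concerns zygotic genome activation and Nr5a2.

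The authors' tables compare neighbouring stages, so the net log2 fold change of a gene was the sum of the log2 fold changes of 3 of these comparisons (G1 zygote over MII egg, G2 zygote over G1 zygote, 2-cell embryo over G2 zygote). Positive values mean a higher level in 2-cell embryos. Genes were kept if their normalized count averaged 100 or more over the 12 C57BL/6J samples, which left 8637 of 24411 gene symbols. Of these, 8300 had a p-value in all 3 tables and were tested with a Wald test rebuilt from the authors' standard errors (SE). The other 337 lacked a p-value in at least 1 table. The threshold was an adjusted p of 0.05 (Benjamini-Hochberg over all 15900 genes with a p-value). Just inside the limit on the mean count were Mon1b (mean count 100.04) and Fam20b (100.07), and just outside it Ddx26b (99.99) and Ackr3 (99.96).

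The tables hold stage means and comparisons, and values of single samples are not shown here for that reason. The level of a gene in a stage was worked out from its mean count and its fold changes, and is an approximate mean normalized count of the 3 samples. It is not divided by transcript length, so levels are compared between stages and not between genes. The spread between samples of a stage, from the dispersion that the SE imply, had a median of 85.4% of the level for genes with a mean count of 100 to 1000, 39.4% for 1000 to 10000, and 28.9% above 10000. The share of tested genes past the threshold was 53.6%, 71.2% and 85.8% in these 3 ranges. Whether the 3 samples of a stage were separate collections is not in the labels, so a p-value here reflects sample-to-sample spread that can be technical.

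A growing oocyte makes and stores mRNA for meiosis and the first divisions, and the mature egg does not transcribe. After fertilization this maternal RNA is deadenylated and degraded, while the embryo's genome is switched on weakly in the zygote and strongly at the 2-cell stage in the mouse. Stored mRNAs can also gain or lose poly(A) tail through the cytoplasmic polyadenylation element, a U-rich site near the 3' end that the protein CPEB binds. The libraries were primed with oligo-dT, and more or less RNA and a longer or shorter poly(A) tail cannot be told apart in these values. The same holds for a change in a gene's RNA per embryo and a change in the total RNA of the embryo, since the authors' normalization sets no scale for the total.

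The markers of both stages followed the labels. The level summed over 10 egg markers was 22786 in 2-cell embryos and 502771 in MII eggs. Over the 8 markers of 2-cell embryos with values it was 34899 in 2-cell embryos and 428 in MII eggs. Single genes carried much of these sums, with H1foo at 236282 in MII eggs and Obox6 at 26179 in 2-cell embryos. Each marker with values differed in the direction of its sum, although Zp1 and Zp3 did not pass the threshold.

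Between MII eggs and 2-cell embryos most of the measured poly(A) RNA was exchanged. Of the 8300 genes tested, 2724 (32.8%) were higher in 2-cell embryos and 2254 (27.2%) were lower, so that 60.0% passed the threshold in either direction, and 3322 did not. Genes that were higher had a median level of 1585 in 2-cell embryos and 105 in MII eggs. Genes that were lower had a median level of 119 in 2-cell embryos and 1342 in MII eggs. Their median net log2 fold changes were 3.84 and -3.64, with a median SE of 0.72 and 0.83, and 955 of the higher and 763 of the lower genes changed by at least 5 on the log2 scale. The median over all members was 0.08 (quartiles -2.07 and 2.68).

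**Figure D1:**
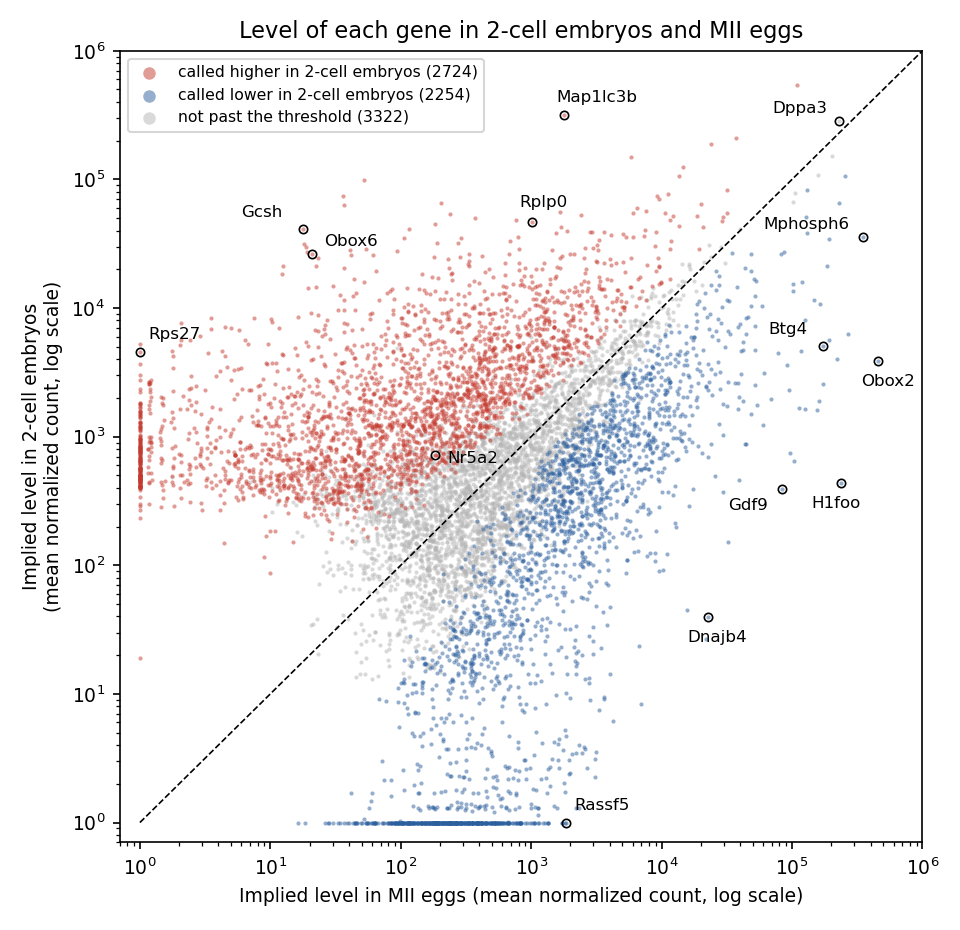
Implied level of each tested gene in 2-cell embryos (vertical axis) and MII eggs (horizontal axis), both as mean normalized counts on log scales, with levels under 1 drawn at 1 and the dashed line marking equal levels. The 2724 genes called higher lie above the line and the 2254 called lower below it, with 3322 grey genes along it; Obox2 and H1foo lie far below the line, Map1lc3b and Obox6 far above it.

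Weighted by abundance, called genes took most of the summed levels in both stages. Abundant genes have a smaller SE and pass the threshold more often, so this does not show a larger exchange among them. Genes called higher or lower, and the highest genes of a stage, are chosen by these same levels. The direction of their shares is therefore in part set by that choice. Genes called higher took 65.7% of the summed levels in 2-cell embryos and 8.62% in MII eggs. Genes called lower took 10.97% in 2-cell embryos and 68.1% in MII eggs, while genes not past the threshold took 20.2% and 20.8%. Of the 100 genes with the highest levels in 2-cell embryos 80 were called higher and 11 lower, and of the 100 highest in MII eggs 6 were called higher and 86 lower. Only 24 genes were on both lists. Among the 275 tested members with a mean count of at least 10000 over all 12 samples, 26.5% were higher and 59.3% lower. That mean includes G1 and G2 zygotes, where lower genes had median levels of 1104 and 830 and higher genes 135 and 215. The limit therefore favours lower genes, and these shares do not measure the exchange.

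The transcripts with the highest levels of each stage show this exchange. Map1lc3b, the LC3 protein of the autophagosome membrane, had a level of 318186 in 2-cell embryos, against 1795 in MII eggs (net log2 fold change 7.47, SE 0.24). Ubb, a polyubiquitin gene, was at 187837 in 2-cell embryos and 23835 in MII eggs, and Rapgef4, an exchange factor for the GTPase Rap that responds to cyclic AMP, at 540456 and 109965 in the same order of stages. The class Ib MHC gene H2-T23 had 210833 in 2-cell embryos and 37155 in MII eggs. All 4 were higher, whereas Dppa3, which protects maternal DNA methylation after fertilization, was among the highest in both stages without passing the threshold, with 284901 in 2-cell embryos and 227932 in MII eggs (0.32, SE 0.16, adjusted p = 0.085, Wald test). Obox2, a homeobox gene of the egg, had a level of 3858 in 2-cell embryos and 457564 in MII eggs. Mphosph6, a cofactor of the RNA exosome, had 35742 and 351662 in these stages. The Akt coactivator Tcl1 had 6315 in 2-cell embryos and 266286 in MII eggs, and the oocyte gene Oog3 65036 and 228895. These 4 genes were lower, as was Omt2b (-1.25, SE 0.35), while its near copy Omt2a was not past the threshold (-0.41, SE 0.34). The counting can have split reads between these copies, and likewise within the Obox and Oog families.

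The net change fell mostly into the step from G2 zygote to 2-cell embryo. Genes called higher had median log2 fold changes of 0.14, 0.76 and 2.92 over the 3 steps in order of stage, and genes called lower -0.20, -0.30 and -3.23. In the authors' deposited table of the first step, 2.34% of the 8300 genes were called higher and 1.48% lower. In that of the second step the shares were 7.06% and 2.65%, and in that of the third 30.5% and 25.5%. Of the 2724 genes with a higher net level, 2095 were called higher at the third step and 539 at the first or second. Of the 2254 with a lower net level, 1773 were called lower at the third step and 132 at the first or second. A further 444 and 413 genes passed the net threshold without any step called. The steps share samples with the net change, so these counts describe its course and are no independent evidence of it.

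Some genes changed before the first cleavage and had no call after it. The examples, from genes with a call at the first or second step and none at the third, were chosen after their values were seen. Cnot1, the scaffold of the CCR4-NOT deadenylase, had levels of 81.9, 440.1, 1443 and 2195 in MII eggs, G1 zygotes, G2 zygotes and 2-cell embryos. Vamp8, a SNARE protein of endosome fusion, had 174, 869, 3507 and 3169.9 over the same stages, and Spc25, a subunit of the kinetochore NDC80 complex, 1302, 3244, 6284 and 8064. For all 3 the authors' deposited table makes no call between G2 zygotes and 2-cell embryos. On the losing side, Mos, the kinase upstream of MAP kinase that holds the egg in metaphase, had 15632, 1458, 171 and 44.6 in order of stage. Bub1b, a kinase of the spindle checkpoint, had 25596, 12598, 1325 and 491, and Ckap2, a spindle protein, 5728, 3074, 1119.6 and 724. Ube2t, a ubiquitin-conjugating enzyme of DNA crosslink repair, was at 27179 in MII eggs and already at 3687 in G1 zygotes, then at 6828 and 5677.

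Calls at all 3 steps in 1 direction were rare, with 26 higher genes and 2 lower ones. Nol12, a nucleolar protein of ribosomal RNA processing, had 54.7, 97.4, 799 and 5235 in order of stage, and Fcf1, of the small-subunit processome, 368, 859, 7371 and 49750.2. The 2 genes lowered at every step were Gdf9, with 83545, 25963, 2958 and 392, and Zdhhc24, a palmitoyltransferase, with 1301, 343, 76.8 and 2.23. The plot of levels over the 4 stages sets these courses beside genes such as Dnajb4 and Obox6, whose levels moved at the last step.

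**Figure D2:**
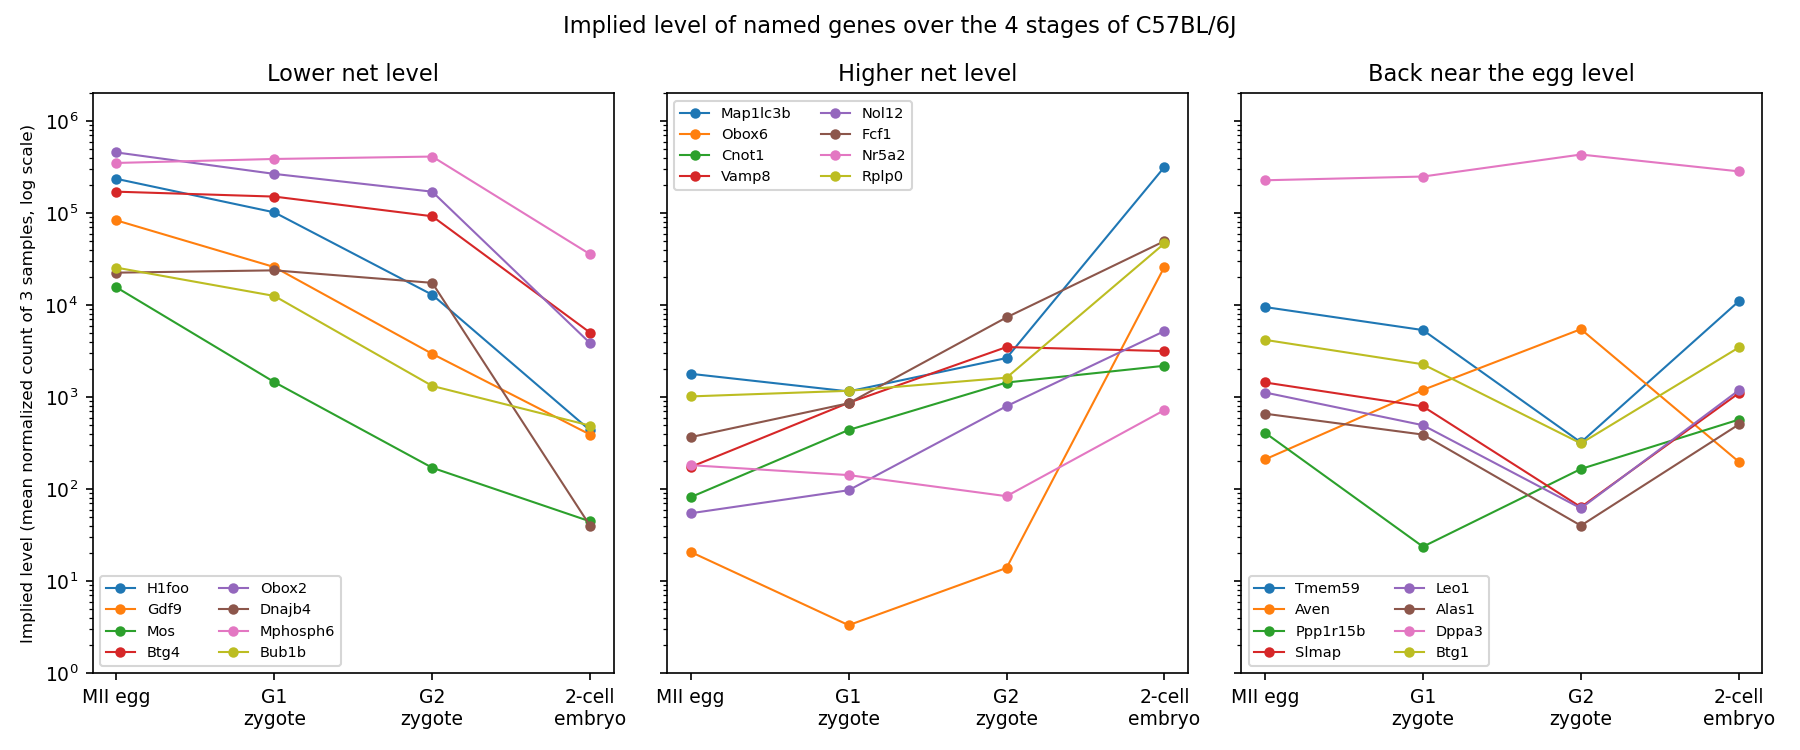
Implied level (mean normalized count of 3 samples, log scale) of named genes in MII eggs, G1 zygotes, G2 zygotes and 2-cell embryos of C57BL/6J, joined by lines: genes with a lower net level on the left, a higher one in the middle, and a level back near that of the egg on the right. Mos, Gdf9 and H1foo decline over all stages while Dnajb4 declines at the last; Cnot1 and Vamp8 climb before the 2-cell stage while Obox6 climbs at it.

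The oocyte's secreted factors and coat genes were mostly depleted. Of 14 tested members of this list 10 were lower and 1 was higher, with a median net log2 fold change of -3.25. Gdf9, the growth factor that the oocyte sends to its follicle cells, had a level of 392 in 2-cell embryos and 83545 in MII eggs (-7.74, SE 0.46). Its partner Bmp15 had 1640.1 in 2-cell embryos and 38204 in MII eggs (-4.54, SE 0.22), and Izumo1r, the egg receptor that sperm bind, 3.09 and 903 (-8.19, SE 0.75). The genes of the zona pellucida, the egg coat, did not move alike. Zp2 was lower (-2.79, SE 0.77), while Zp3 (-0.61, SE 0.29, adjusted p = 0.08) and Zp1 (-1.98, SE 1.5, adjusted p = 0.31) did not pass the Wald test. Relative to the median of all members Zp3 was past it (adjusted p = 0.0423). The level of Zp3 was 4386, 2220.1, 890.4 and 2876 in order of stage. The only higher member was Nppc, the C-type natriuretic peptide, with 447 in 2-cell embryos and 1.76 in MII eggs.

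Of 15 tested genes of the subcortical maternal complex and the Nlrp family, proteins stored in the egg that the first cleavages need, 13 were lower and 0 higher (median -3.95). Zbed3 had 1757 in 2-cell embryos and 54241 in MII eggs (-4.95, SE 0.42). Nlrp14 (-4.26, SE 0.44) and Nlrp4f (-3.82, SE 0.26) were lower too. The members not past the threshold were Khdc3 (-1.49, SE 1.41) and Padi6 (-1.35, SE 0.74). Of 14 oocyte transcription and RNA regulators 5 were lower and 0 higher (median -1.48). They were Dazl, an RNA-binding protein of germ cells (-3.82, SE 0.42), Zar1, which binds and protects maternal mRNA (-4.02, SE 0.97), the oocyte cap-binding protein Eif4e1b (-4.23, SE 0.79), and the transcription factors Lhx8 and Tbpl2. The levels of Lhx8 and Tbpl2 were under 1 in 2-cell embryos, against 184 and 670.5 in MII eggs.

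Genes of meiotic arrest and M phase divided. Of 30 tested, 13 were lower and 3 higher (median -0.87). Mos, the kinase of the MAPK pathway that keeps the egg in metaphase, had 44.6 in 2-cell embryos and 15632 in MII eggs (-8.45, SE 0.98). Pttg1, the securin that holds separase inactive, had 34217 and 190496 (-2.48, SE 0.25), and Fbxo43, also called Emi2, which blocks the anaphase-promoting complex, 216 and 2108 (-3.28, SE 1.03). The 3 that were higher were Cdc25c, the CDK1-activating phosphatase (6.25, SE 1.14), the CDK1-inhibiting kinase Wee1 (5.56, SE 1.28) and Cdk1 itself, with 14832 in 2-cell embryos and 882 in MII eggs (4.07, SE 0.40). Ccnb1, the cyclin partner of Cdk1, had 109069 in 2-cell embryos and 158531 in MII eggs and did not pass the threshold (-0.54, SE 0.48, adjusted p = 0.4, Wald test).

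The genes that degrade maternal mRNA themselves went both ways. Of 37 deadenylation and decay genes 12 were higher and 11 lower (median 0.87), shares of 32.4% and 29.7% that lie near those of all members. Btg4, the adaptor that brings the deadenylase to maternal mRNA, had 5023 in 2-cell embryos and 171362 in MII eggs (-5.09, SE 0.27). Its partner Cnot6l, a catalytic subunit, had 948 and 14057 (-3.89, SE 0.33), while the scaffold Cnot1 was higher (4.74, SE 0.33), as were 5 exosome genes of the list (Exosc2, Exosc4, Exosc5, Exosc8 and Exosc10).

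The element that CPEB binds was found more often near the 3' end of genes that were lower. It was counted as TTTTAT or TTTTAAT on the sense strand in the last 150 nt of the 3' UTR, with 1 transcript per gene (the longest coding one of GENCODE M21), for the 6998 tested members (84.3%) with a 3' UTR of at least 150 nt. The element stood in 447 of 2152 higher genes (20.8%), 669 of 1962 lower genes (34.1%) and 801 of 2884 genes not past the threshold (27.8%), against 27.4% of all. In each of 4 ranges of 3' UTR length the share was larger in lower than in higher genes, with 17.7% of higher and 38.3% of lower genes from 150 to 499 nt and 24.6% and 32.5% at 2000 nt or more. The shares were not tested, and a match does not show binding. The sites of a few genes picked by hand, all with a match, are printed as 30 nt of genomic sense strand (GRCm38). The element is in capitals, as is any AATAAA hexamer, the usual signal for 3' end cleavage, that follows it. Genes looked at without a site to print are left out, so these sites do not tell how common the element is.
Gdf9: ctgtggTTTTATgtgacggaagAATAAAct
Btg4: atccctTTTTATgtctttttaaaagtttga
H1foo: tgaagcTTTTATtgtctaataagctgtcac
Obox2: ttaattTTTTATtgttagagtatatgttca
Tcl1: gtgggaTTTTATgtggttctattttagaga
Tet3: aataaaTTTTATatttattttttgcactca
Dnajb4: tgagtcctatagtctTTTTAATagaatgtg
Ccnb1: ttgctgTTTTAATttatacatctgatatca
These sites lie at chr11:53437860-53437889 (plus strand) for Gdf9, chr9:51119803-51119832 (plus) for Btg4, chr6:115950163-115950192 (plus) for H1foo, chr7:15398484-15398513 (plus) for Obox2, chr12:105216791-105216820 (minus) for Tcl1, chr6:83362375-83362404 (minus) for Tet3, chr3:152183955-152183984 (minus) for Dnajb4 and chr13:100778770-100778799 (minus) for Ccnb1. All are in the 3' UTR, and all of these genes but Ccnb1 were lower. The element of Dnajb4 began 15 nt before the annotated 3' end, that of Gdf9 39 nt and that of Ccnb1 144 nt before it.

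**Figure D3:**
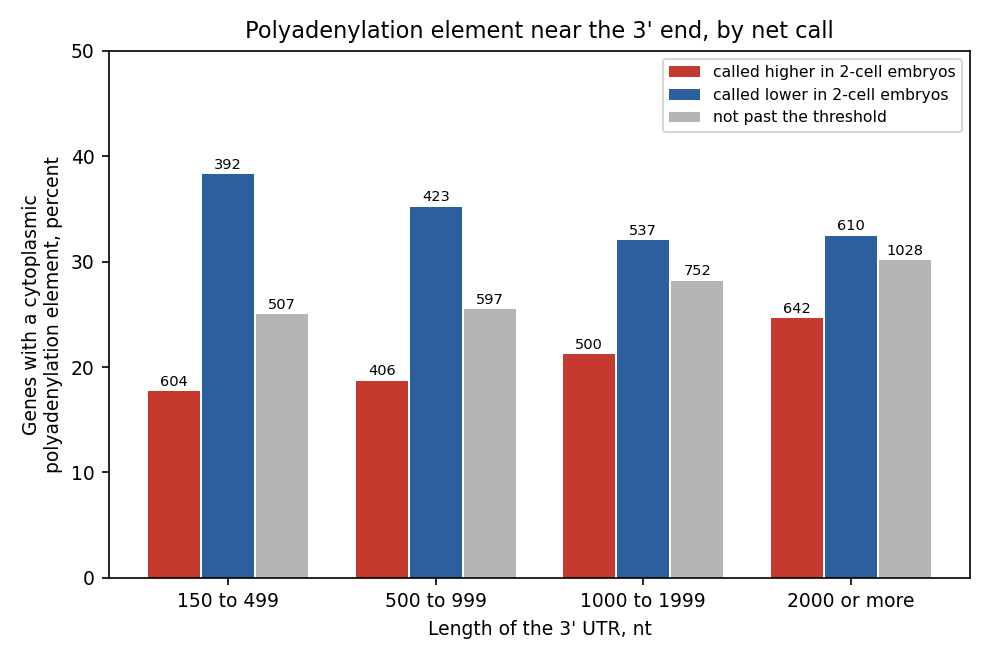
Percent of genes with a cytoplasmic polyadenylation element in the last 150 nt of the 3' UTR (vertical axis) in 4 ranges of 3' UTR length in nt (horizontal axis), for genes called higher, called lower and not past the threshold; the number over each bar is the number of genes. The bar of lower genes is the tallest in each range, from 38.3% of 392 genes with the shortest 3' UTRs to 32.5% of 610 with the longest.

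Of 46 DNA methylation and chromatin modifiers 19 were lower and 10 higher (median -0.86), and with SE raised 1.5 times 8 and 7. H1foo, the linker histone of oocytes, had 435 in 2-cell embryos and 236282 in MII eggs (-9.08, SE 0.62). Tet3, which oxidizes 5-methylcytosine in the zygote, had 169 and 6808 (-5.33, SE 0.33), and the maintenance methyltransferase Dnmt1 679 and 9588 (-3.82, SE 0.37). In the other direction, Dnmt3l, the cofactor of de novo methylation, had 2507 in 2-cell embryos and 438 in MII eggs (2.52, SE 0.43), and the H3K4 demethylase gene Kdm5b 4575 and 213 (4.42, SE 0.97). With genes of a mean count of 10 or more included, the median of this list was 0.25.

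Most of the kept transcripts known from the 2-cell stage were higher. The list held 43 genes, of which 25 had the mean count to be kept. Of these 25, all tested, 18 were higher and 3 lower, with a median of 5.19. A gene absent before the 2-cell stage reaches that mean count only through its 2-cell level. The share of higher genes is therefore in part set by the limit. Zfp352, a zinc finger gene of the 2-cell stage, had 1062 in 2-cell embryos and 10.3 in MII eggs (6.70, SE 0.66), and the translation factor gene Eif1a 4371 and 31.5 (7.12, SE 1.16). Zscan4d, of a telomere-regulating family of near-identical copies that can share reads, was at 580.0 in 2-cell embryos and 69.9 in MII eggs (3.05, SE 1.26, adjusted p = 0.039, Wald test), a call lost with SE raised 1.5 times (adjusted p = 0.264). The 3 lower members were Eif4e3, a cap-binding protein (92.2 in 2-cell embryos and 10235 in MII eggs), Tcstv1 (-2.23, SE 0.65) and Cphx2, which was under 1 in 2-cell embryos and 833 in MII eggs. With the 9 members of a mean count of at least 1000 alone the median of the list was -0.31. Dux, the homeobox activator of this programme, had levels under 1 in 2-cell embryos and MII eggs and of 28.6 in G2 zygotes, and too low a mean count to be kept. The authors made no call for Dux between G1 and G2 zygotes (log2 fold change 7.59, SE 4.09), so its level in G2 zygotes is uncertain.

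Candidate activators of the embryonic genome went both ways, with 13 of 28 higher and 6 lower (median 1.84). Nr5a2, the orphan nuclear receptor of the series' title (chr1:136842562-136960448, GRCm38), had levels of 182, 142, 83.9 and 724 in MII eggs, G1 zygotes, G2 zygotes and 2-cell embryos. Its net log2 fold change was 1.99 (SE 0.56, adjusted p = 0.0014, Wald test), with a spread between samples of 47.2% of the level. With SE raised 1.5 times its adjusted p was 0.0655, and that of Esrrb 0.069. Esrrb, an orphan receptor that binds a similar DNA motif, was lower, with 16.1 in 2-cell embryos and 175 in MII eggs (-3.44, SE 0.98). Within the Obox homeobox family, Obox6 (26179 in 2-cell embryos and 20.8 in MII eggs) and Obox3 (13452 and 82.3) were higher and Obox1, Obox2 and Obox5 lower. Dppa4 (8.57, SE 0.80) and Dppa2 (4.72, SE 0.33), partners upstream of Dux, were higher. Of the subunits of NF-Y, Nfyb and Nfyc were higher and Nfya lower (-2.09, SE 0.67).

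Nearly all genes of the cytosolic ribosome were higher. Of 79 cytosolic ribosomal protein genes 76 were higher and 0 lower (70 and 0 with the squared SE of the steps added, under which 27 of 56 list counts moved by more than 1.5 times), with a median of 4.87 (quartiles 3.32 and 6.02), and together they took 4.49% of the summed levels in 2-cell embryos and 0.308% in MII eggs. Rplp0, of the ribosomal stalk, had 46986 in 2-cell embryos and 1019 in MII eggs (5.53, SE 0.23). Rps27 had a level of 4581 in 2-cell embryos and under 1 in MII eggs. Rps2 (0.73, SE 0.56), Rps15a (0.18, SE 0.35) and Rplp2 (0.87, SE 0.46) did not pass the threshold. These genes have many processed pseudogenes, whose reads the counting can have shared. Their mRNAs are known to start with a run of pyrimidines, through which their translation is regulated by mTOR. For 58 of the 79 a promoter was matched in RefSeq (GRCm38.p6), and in 20 of these (34.5%) a run of at least 5 that opens with C stood at the annotated start or within 2 bases of it, against 8.96% of all 27025 promoters. With the rest of the list unmatched, the share is void for the list as a whole. The 20 bases on each side of the annotated start are shown for 6 of the 20, all higher, sense strand, with the run of pyrimidines at the start in capitals.
Rps6: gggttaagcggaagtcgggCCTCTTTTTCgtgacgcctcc
Rpl28: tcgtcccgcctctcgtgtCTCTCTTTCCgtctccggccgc
Rpl35: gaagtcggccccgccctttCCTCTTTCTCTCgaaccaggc
Fau: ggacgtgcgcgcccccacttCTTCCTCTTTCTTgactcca
Rpl38: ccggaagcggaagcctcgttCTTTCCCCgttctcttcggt
Rps24: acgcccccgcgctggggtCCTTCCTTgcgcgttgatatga
These windows lie at chr4:86857348-86857387 (minus strand) for Rps6, chr7:4792945-4792984 (plus) for Rpl28, chr2:39005112-39005151 (minus) for Rpl35, chr19:6057927-6057966 (plus) for Fau, chr11:114668560-114668599 (plus) for Rpl38 and chr14:24490658-24490697 (plus) for Rps24. The net log2 fold changes were 6.48 for Rps6 (SE 0.35), 5.98 for Rpl28 (SE 0.37), 5.10 for Rpl35 (SE 0.34), 3.61 for Fau (SE 0.27), 5.12 for Rpl38 (SE 0.41) and 5.35 for Rps24 (SE 0.43).

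The genes that build and serve ribosomes followed with smaller medians. Of 42 ribosome biogenesis factors 28 were higher and 2 lower (median 2.22), with Nhp2, a protein of the pseudouridylation complex, at 25678 in 2-cell embryos and 60.9 in MII eggs (8.72, SE 0.60) and Nop16 at 18421 and 12.2 (10.56, SE 0.87). The lower members were Dkc1, the catalytic partner of Nhp2 (-0.85, SE 0.22), and Mphosph10 (-0.72, SE 0.25). Of 43 translation initiation and elongation factors 26 were higher and 3 lower (median 2.24). Eif2s1, the alpha subunit of eIF2, had 19970.2 in 2-cell embryos and 1089 in MII eggs (4.20, SE 0.34). Aminoacyl-tRNA synthetases, which charge tRNAs, lay near the background, with 5 of 18 higher and 4 lower (median 0.50). Their shares were 27.8% and 22.2%, beside 32.8% and 27.2% of all tested members. Rars for arginine was higher (4.74, SE 0.48), and Lars for leucine was lower (-5.31, SE 0.76).

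**Figure D4:**
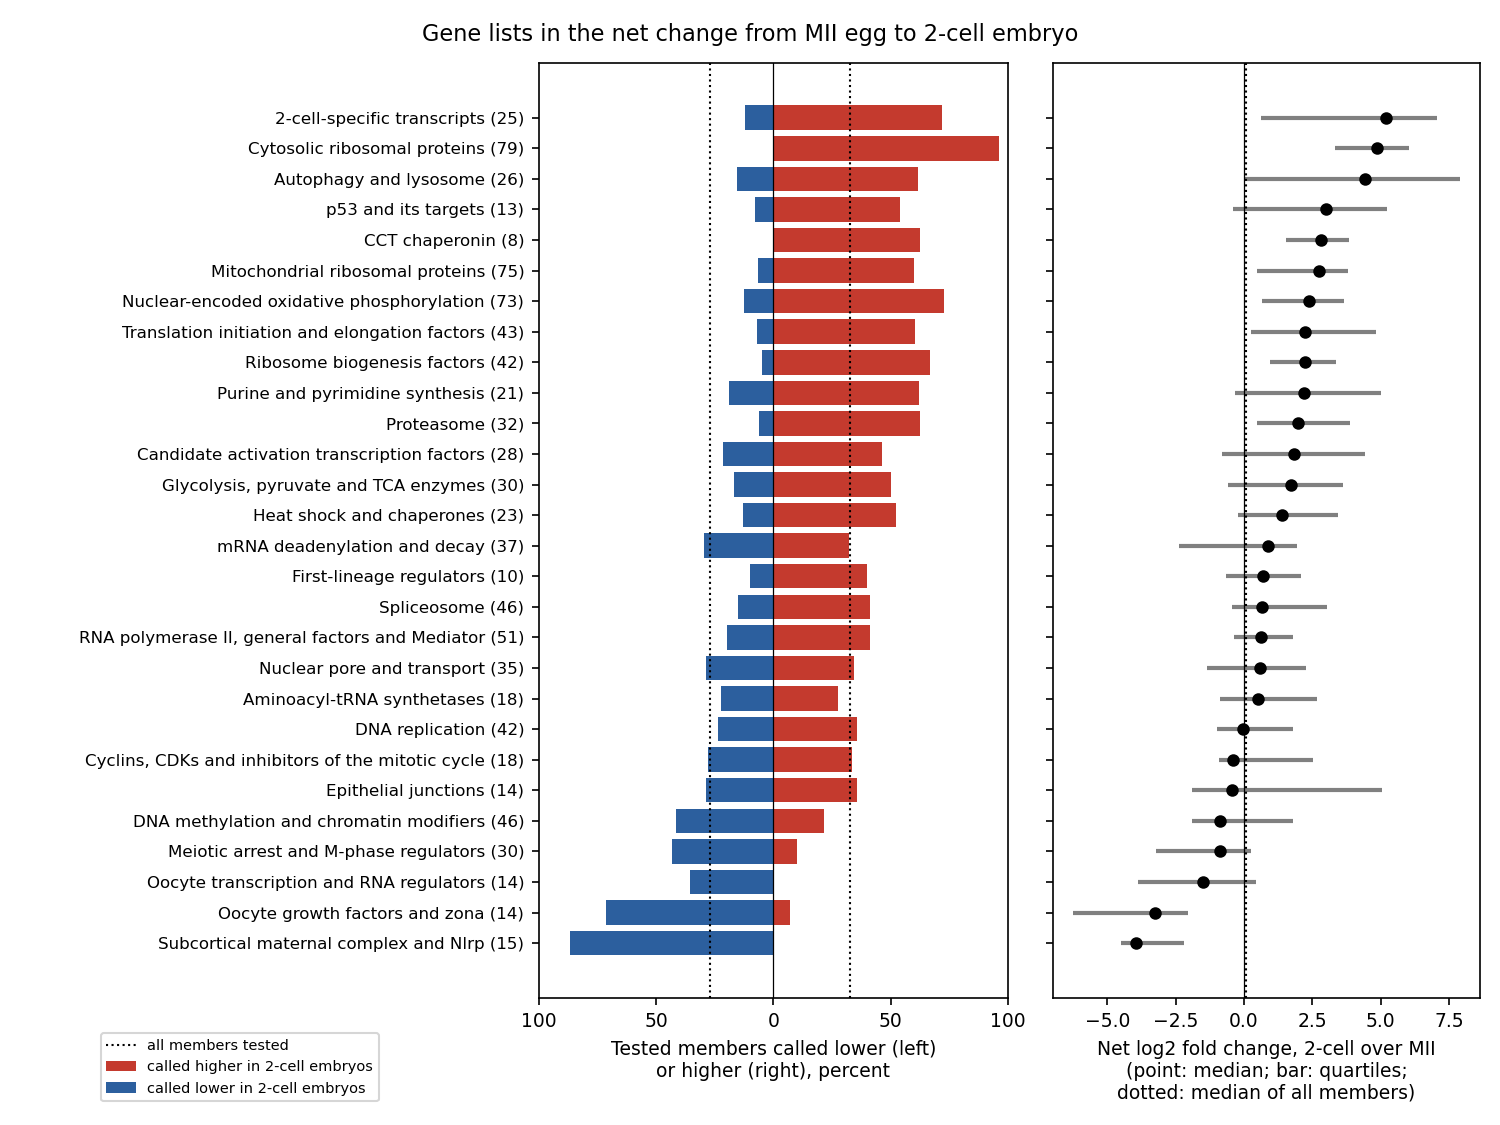
Percent of the tested members of each gene list (number in parentheses) called higher (right, red) or lower (left, blue) in 2-cell embryos, with dotted lines at the shares of all tested members (32.8% and 27.2%), and at right the median and quartiles of the net log2 fold change. Cytosolic ribosomal protein genes have 96.2% higher and 0% lower; the subcortical maternal complex and Nlrp list has 86.7% lower and 0% higher.

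Genes of the mitochondrion were mostly higher. Of 73 nuclear-encoded genes of oxidative phosphorylation 53 were higher and 9 lower (median 2.38). Atp5g1, for the c ring of ATP synthase, had 54189.9 in 2-cell embryos and 240.5 in MII eggs (7.82, SE 0.35), and Cox4i1, of cytochrome oxidase, 11779.8 and 244 (5.59, SE 0.24). Subunits of single complexes moved apart: of succinate dehydrogenase, Sdhb (3.70, SE 1.19) and Sdhd (2.85, SE 0.42) were higher, and Sdha (-6.73, SE 0.82) and Sdhc (-2.81, SE 1.06) lower. Of 75 mitochondrial ribosomal protein genes 45 were higher and 5 lower (median 2.73), among them Mrpl41 with 8904 in 2-cell embryos and 57.8 in MII eggs (7.27, SE 0.54).

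Among metabolic enzymes, 15 of 30 genes of glycolysis, pyruvate use and the TCA cycle were higher and 5 lower (median 1.71). Mdh2, the mitochondrial malate dehydrogenase, had 32149 in 2-cell embryos and 189.8 in MII eggs (7.40, SE 0.34), while its cytosolic form Mdh1 was lower (-3.65, SE 0.55). Ldhb, the lactate dehydrogenase subunit of the egg, had 5599 in 2-cell embryos and 191477 in MII eggs (-5.10, SE 0.44). The 40 genes of this list with values took 0.646% of the summed levels in 2-cell embryos and 1.12% in MII eggs, although more of its members were higher than lower. Of 21 purine and pyrimidine genes 13 were higher and 4 lower (median 2.18). Prps1, which makes the ribose precursor of nucleotides, had 63246 in 2-cell embryos and 36.7 in MII eggs (10.75, SE 1.14), and Ppat, the first committed enzyme of purine synthesis, 7728 and 10.4 (9.54, SE 1.14). The mitochondrial serine hydroxymethyltransferase Shmt2 was lower, with 1.33 in 2-cell embryos and 1061 in MII eggs.

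Protein turnover and folding genes were more often higher than lower. Of 32 proteasome genes 20 were higher and 2 lower (median 1.97), with Psma6 at 22392 in 2-cell embryos and 810.3 in MII eggs (4.79, SE 0.20). Autophagy and lysosome genes numbered 16 higher and 4 lower of 26 (median 4.44), and the 38 genes of the list with values took 2.39% of the summed levels in 2-cell embryos and 0.149% in MII eggs. The lysosomal membrane gene Lamp2 had 25052 in 2-cell embryos and 179 in MII eggs (7.13, SE 0.51), the LC3 relative Gabarapl2 35499 and 792 (5.49, SE 0.33), and Becn1, which starts autophagosome formation, was lower (-1.56, SE 0.47). With genes of a mean count of 10 or more included, the median of this list was 2.39. Of 8 genes of the CCT chaperonin, which folds actin and tubulin, 5 were higher and 0 lower (median 2.82). Of 23 heat shock and chaperone genes 12 were higher and 3 lower (median 1.40), the lower ones being the cytosolic Hsp90 genes Hsp90aa1 (15990.3 in 2-cell embryos and 119884 in MII eggs) and Hsp90ab1 and their cochaperone Ahsa1. Dnajb9, a cochaperone of the endoplasmic reticulum, was higher (6.99, SE 0.69).

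The machinery of transcription and splicing lay closer to the background. Of 51 genes of RNA polymerase II, general factors and Mediator 21 were higher and 10 lower (median 0.62), and of 46 spliceosome genes 19 were higher and 7 lower (median 0.65). Supt4a, of the elongation factor DSIF, had 35058 in 2-cell embryos and 292 in MII eggs (6.91, SE 0.40), and was higher. The Mediator gene Med30 was lower, with 414 and 12744 (-4.94, SE 0.40). Snrpc, of the U1 snRNP, was higher (6.68, SE 0.42), and the splicing factor gene Srsf3 lower (-1.5, SE 0.31). Of 35 nuclear pore and transport genes 12 were higher and 10 lower (median 0.57), shares of 34.3% and 28.6% beside 32.8% and 27.2% of all tested members. The exporter Xpo1 (4.79, SE 0.48) and the GTPase Ran (2.57, SE 0.25) were higher and the oocyte importin Kpna7 (-9.42, SE 0.54) lower. For the pore genes of a mean count of at least 1000 alone the median was -1.09.

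Genes of the cell cycle showed no common direction. Of 42 replication genes 15 were higher and 10 lower (median -0.02), and of 18 cyclins, CDKs and their inhibitors 6 were higher and 5 lower (median -0.42). The shares were 35.7% and 23.8% in the first list and 33.3% and 27.8% in the second. Those of all tested members were 32.8% and 27.2%. Gins1, of the replicative helicase, had 1851 in 2-cell embryos and 171 in MII eggs (3.43, SE 0.41), and was higher. Rpa3, of the single-strand binding protein RPA, was lower, with 1115 and 13832 (-3.63, SE 0.38). Ccne1, the cyclin of S phase entry, was higher (5.18, SE 1.31). So was the CDK inhibitor Cdkn1a, a target of p53, with 9618 in 2-cell embryos and 86.6 in MII eggs (6.80, SE 0.84). Of 13 genes of p53 and its targets 7 were higher and 1 lower (median 2.98), with the death effector Bax (5.22, SE 0.62) and the glycolytic regulator Tigar (5.67, SE 0.54) higher and Mdm2, which degrades p53, lower (-2.25, SE 0.46).

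Few regulators of later lineages were measured. Of 10 first-lineage genes 4 were higher and 1 lower (median 0.71), and the trophectoderm factor Cdx2 had too low a mean count to be kept. Tead4, which specifies trophectoderm, had 430.5 in 2-cell embryos and under 1 in MII eggs. Nanog, of the epiblast, had 5571 in 2-cell embryos and 623 in MII eggs (3.16, SE 0.46), and Gata3 was lower (-4.81, SE 0.89). Of 14 genes of epithelial junctions 5 were higher and 4 lower (median -0.43). These shares of 35.7% and 28.6% lie near the 32.8% and 27.2% of all tested members. The lower ones were Cdh1, Ctnna1, Ctnnb1 and Ctnnd1.

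The steepest gains among genes with a level of at least 10 in both stages were those of Gcsh, Timd2, Prps1, Ctsc, Tomm5 and Cd63. Gcsh, a subunit of the glycine cleavage system, had 40888 in 2-cell embryos and 17.9 in MII eggs (11.16, SE 1.30). Timd2, a surface receptor, had 98682 and 52.3 (10.88, SE 1.09), and the lysosomal protease Ctsc 31217 and 18.2 (10.74, SE 1.29). Tomm5 belongs to the import pore of the outer mitochondrial membrane (10.74, SE 0.97), and Cd63 is a membrane protein of late endosomes (10.63, SE 1.13). The steepest losses were those of Dnajb4, H1foo, Mos, Clcc1, Oas1h and Pdcd7. The cochaperone gene Dnajb4 had 39.9 in 2-cell embryos and 22570.1 in MII eggs (-9.15, SE 0.41), and Clcc1, a chloride channel of the endoplasmic reticulum, 23.5 and 6716 (-8.16, SE 0.50). Oas1h, of the 2'-5' oligoadenylate synthetase family, whose copies can share reads, had 14.3 and 4031 (-8.14, SE 0.40).

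A separate set of genes was near 0 in 1 of the stages, where 1 is the level that 3 counts over the 3 samples give and no fold is stated below it. In 2-cell embryos 426 members were under 1, of which 421 were called lower, and in MII eggs 181 were under 1, of which 170 were called higher. A gene under 1 in 1 stage is a member only if its other stages are high. These calls are therefore largely set by the limit on the mean count. Among genes under 1 in MII eggs, the highest levels in 2-cell embryos were those of the RNA export factor Nxf2 (5212), the ribosomal protein Rps27 (4581), Npl, a lyase of sialic acid breakdown (3697), the protease Ctsz (3018), Pramel6 (2779), and Chchd4, which imports proteins into the mitochondrial intermembrane space (2229). The call of Chchd4 was lost with the squared SE of the steps added (adjusted p = 0.108), and its spread between samples was 246% of the level. Among genes under 1 in 2-cell embryos, the highest levels in MII eggs were those of the Ras effector Rassf5 (1854), the imprinted gene Mest (1826), the RhoGAP gene Stard13 (1722), Tmem171 (1719), the serpin Serpinb3a (1353) and Msh4, of meiotic recombination (1342).

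Levels near 0 in C57BL/6J 2-cell embryos mostly were not near 0 in the hybrid. Of the 421 genes, 370 were also measured in B6CASTF1, whose tables were fitted and normalized on their own. Among them 7 had a level under 1 in B6CASTF1 2-cell embryos, 316 (85.4%) had at least 10 and 96 (25.9%) at least 100, with a median of 46.7. Of the 1813 other lower genes measured there, 98.1% had at least 10 and 77.7% at least 100, with a median of 415. The 370 were thus the lower ones in the hybrid too. They were chosen by a low value in C57BL/6J, and a difference between the strains was not tested. The change from G1 zygote to 2-cell embryo was below 0 in B6CASTF1 for 356 of the 370, with a median log2 fold change of -3.15. Measured here means a mean count of at least 100 in B6CASTF1. A gene low in its 2-cell embryos met that only through its zygotes, so this direction is in part fixed. Mest had a level of 616 in B6CASTF1 2-cell embryos, against 4881 in B6CASTF1 G1 zygotes, and Msh4 279 and 1578. Levels of the 2 strains come from tables normalized separately.

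Several proteins exist as an oocyte form and another form. A list of 20 pairs was drawn up after values had been seen, so its counts are a description. It also holds pairs of related genes for different proteins, such as Gdf9 with Gdf3 and Obox2 with Obox6. In these the gene of the egg is counted as the oocyte form. In the 16 pairs with both forms tested, the oocyte form was lower in 12 and higher in 0, and the other form was higher in 8 and lower in 1. Both held, a lower oocyte form and a higher other form, in 6 pairs, among them Gdf9 with Gdf3, Ldhb with Ldha and Obox2 with Obox6. Unlike elsewhere, forms under the limit on the mean count were included in the pairs if they had p-values, as was Gdf3 (mean count 66.6). In 6 more the oocyte form was lower and the other form not past the threshold. The median net log2 fold change was -4.55 for oocyte forms and 1.40 for the others, and in 15 of 16 pairs the oocyte form had the lower value. The cap-binding Eif4e was higher (3.19, SE 0.24) and its oocyte form Eif4e1b lower (-4.23, SE 0.79). The importin Kpna2 had 54483 in 2-cell embryos and 6019 in MII eggs, while Kpna7 had 6.16 and 4223. Wee1 (5.56, SE 1.28) was set against Wee2 (-3.22, SE 0.57). In other pairs the second form did not pass the threshold, as with Npm1 (0.07, SE 0.29) beside the nucleoplasmin Npm2 (-2.87, SE 0.28), and the TATA-binding protein Tbp (-0.07, SE 0.22) beside Tbpl2, which was under 1 in 2-cell embryos. The survival gene Bcl2l1 (0.16, SE 0.84) stood beside Bcl2l10 (1616 in 2-cell embryos and 154181 in MII eggs). The exception in order was the pair of Y-box proteins, with the oocyte form Ybx2 at 0.99 (SE 1.17), not past the threshold, and Ybx1 at 0.87 (SE 0.30), which was higher.

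A net change near 0 did not always mean a stable transcript. Of 998 members, predicted genes left out, within 0.5 of 0 on the log2 scale and at 10 or more in every stage, 65 had steps called in both directions by the authors. Tmem59, a Golgi protein that limits glycosylation, had levels of 9542, 5363, 323 and 11036 in MII eggs, G1 zygotes, G2 zygotes and 2-cell embryos. Leo1, of the PAF1 elongation complex, had 1124, 496, 62.0 and 1189, and Alas1, the first enzyme of heme synthesis, 661, 392, 40.2 and 505. These genes, like Slmap, dipped in G2 zygotes and returned, whereas Aven, an apoptosis inhibitor, peaked there with 211, 1199, 5487 and 199. Ppp1r15b, a phosphatase subunit acting on eIF2, was lowest in G1 zygotes (23.7, against 410.3 in MII eggs).

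B6CASTF1 embryos give a view from libraries that C57BL/6J does not share, although without MII eggs. Of 2440 genes called higher in C57BL/6J and measured in the hybrid at a mean count of 100 or more, 2340 (95.9%) had a log2 fold change above 0 from G1 zygote to 2-cell embryo in B6CASTF1. Of 2183 called lower, 2062 (94.5%) were below 0 there. Among all 7800 such members 50.6% were above 0 in B6CASTF1. A gene near 0 in B6CASTF1 zygotes meets this minimum only through its level in B6CASTF1 2-cell embryos, and the reverse holds too. The sign of such genes is set by the minimum, so the shares of 95.9% and 94.5% are in part fixed by it. The median over the higher genes was 3.52 in B6CASTF1 and 3.35 in C57BL/6J over the same span, and over the lower genes -2.64 and -3.43. The median SE of this change over members was 0.35 in B6CASTF1 and 0.83 in C57BL/6J. The difference between the strains was not tested.

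**Figure D5:**
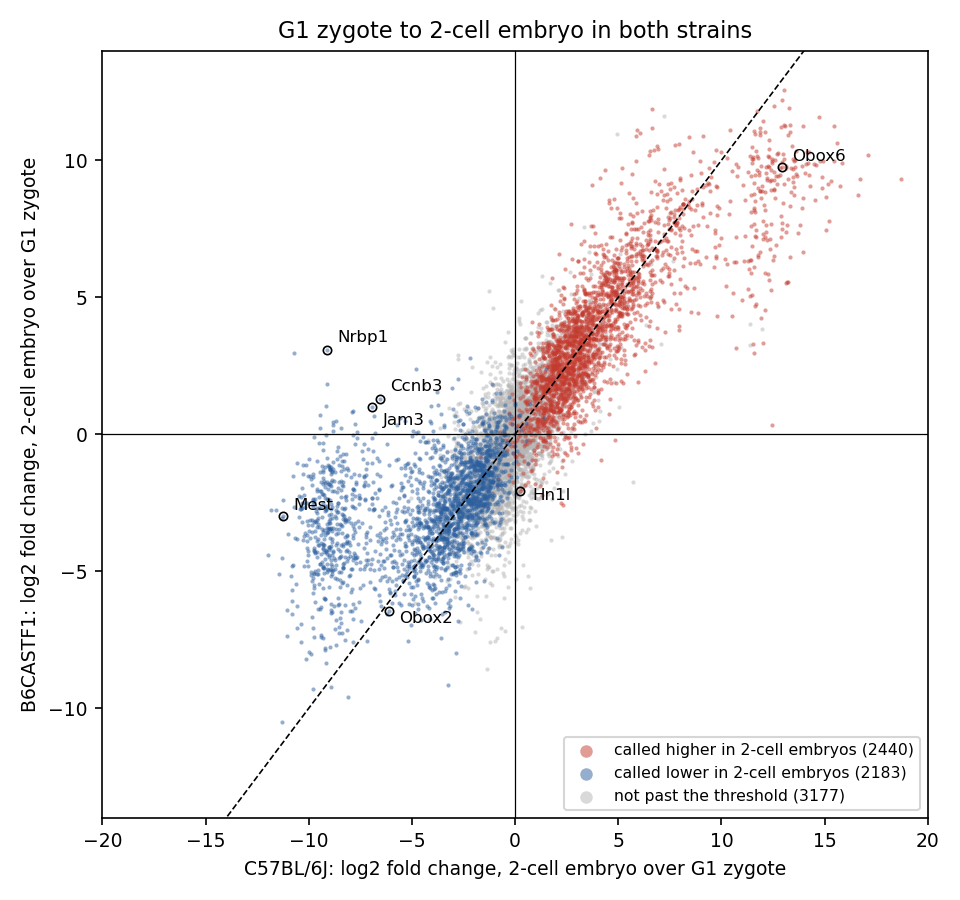
Log2 fold change from G1 zygote to 2-cell embryo in B6CASTF1 (vertical axis; 2 and 3 samples) and C57BL/6J (horizontal axis; 3 samples each) for members measured in both, coloured by their net call in C57BL/6J, with the dashed line marking equal values. Most of the 2440 higher genes lie at upper right and most of the 2183 lower genes at lower left; the column of blue points near -9 on the horizontal axis holds genes near 0 in C57BL/6J 2-cell embryos.

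The exceptions were few. Among genes called higher, 22 were below -1 in B6CASTF1, and among genes called lower, 28 were above 1. Pfn1, the actin-binding profilin, was higher in the net change of C57BL/6J (1.91, SE 0.23), but its level was 3233 in B6CASTF1 2-cell embryos and 10928 in B6CASTF1 G1 zygotes. Part of its gain in C57BL/6J lay in the step from MII egg to G1 zygote (log2 fold change 1.28 in the authors' deposited table), which was not measured in the hybrid. Ccnb3, a B-type cyclin, had 2.97 in C57BL/6J 2-cell embryos and 264 in MII eggs, but 610.4 in B6CASTF1 2-cell embryos and 251 in B6CASTF1 G1 zygotes. The gap-junction gene Gja1 was not among these exceptions. It reached 783 in C57BL/6J 2-cell embryos with levels under 1 in the earlier stages. B6CASTF1 had 79.6 in 2-cell embryos and 46.3 in G1 zygotes (log2 fold change 0.78, SE 2.84). With this SE the change of Gja1 in the hybrid is poorly known.

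Transcripts of genes that were higher were shorter by their median. The median transcript length was 2402 nt for higher genes, 3243 nt for lower genes and 3476 nt for those not past the threshold (7605 tested members with a coding transcript, 91.6%). Among the shortest 20% of transcripts, from 216 to 1648 nt, 50.5% were higher and 20.8% lower, and among the longest 20% the shares were 19.9% and 29.8%. Without ribosomal protein and oxidative phosphorylation genes the share of higher genes among the shortest was 46.5%. Spearman's rho between the net change and transcript length was -0.19 across genes, which share libraries and are not independent replicates.

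Promoters were searched for the extended motif that Nr5a2 binds, TCAAGGTCA on either strand, from 250 bases before to 50 after the RefSeq start. A promoter was matched for 6736 tested members (81.2%). The motif stood in 10 of 2207 higher genes (0.453%), 3 of 1832 lower genes (0.164%) and 5 of 2697 genes not past the threshold (0.185%), against 0.407% of all 27025 promoters. These counts are small and were not tested. Its core, TCAAGG, which the extended motif contains, stood in 13.1% of higher, 12.3% of lower and 10.5% of other tested genes, against 14.5% of all promoters. A motif of ETS factors, CCGGAAG, stood in 22.4% of higher, 15.2% of lower and 20.3% of other tested genes, against 9.12% of all promoters. Matches to the Nr5a2 motif are shown for 4 genes that were higher and 1 that was lower (Mfsd10), sense strand of the gene, GRCm38.p6, with the motif in capitals. Where the capitals read TGACCTTGA the motif is on the other strand.
Atp5g3: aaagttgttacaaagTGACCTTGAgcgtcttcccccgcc
Sdhd: ttccgggttgtagagTGACCTTGAgccct
Tpm3: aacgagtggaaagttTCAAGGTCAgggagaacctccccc
Bhmt: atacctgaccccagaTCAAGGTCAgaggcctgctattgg
Mfsd10: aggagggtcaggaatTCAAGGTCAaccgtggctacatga
The windows lie at chr2:73911355-73911393 (minus strand) for Atp5g3, chr9:50603800-50603828 (minus) for Sdhd, chr3:90072406-90072444 (plus) for Tpm3, chr13:93637810-93637848 (minus) for Bhmt and chr5:34637410-34637448 (minus) for Mfsd10. Atp5g3 (4.51, SE 0.39) and Sdhd (2.85, SE 0.42) belong to oxidative phosphorylation, Tpm3 is a tropomyosin (2.99, SE 0.40) and Bhmt a methyltransferase of homocysteine (771 in 2-cell embryos and under 1 in MII eggs). Mfsd10 is a membrane transporter, under 1 in 2-cell embryos and 351 in MII eggs. A match says only that these letters are in the window.

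Most markers of other cells had low levels or none. Of 10 markers of cumulus and granulosa cells, which surround the egg, 3 had a mean count of 0, and the levels of the other 7 summed to 302 in 2-cell embryos and 1609 in MII eggs. Nearly all of the sum in MII eggs was Cyp19a1, the aromatase (4.05 in 2-cell embryos and 1597 in MII eggs), and nearly all of that in 2-cell embryos was Amhr2 (286 and, in MII eggs, 0.160), while Fshr and Ptgs2 were under 2 in both. The sum over 6 sperm markers was 116 in 2-cell embryos and 79.6 in MII eggs. Of 3 blood markers Hbb-bs had a mean count of 0 and Ptprc was under 1 in both stages, but the globin gene Hba-a1 had 3827 in 2-cell embryos and 3.05 in MII eggs. Of 3 oviduct markers Foxj1 and Pax8 had a mean count of 0, and Ovgp1 had 235 in 2-cell embryos and 4.24 in MII eggs. The part of other cells in the results was not tested. In batches of embryos, fewer cells of a type and less RNA per cell cannot be told apart.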

How the data were processed

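Poly(A) RNA from small batches of eggs or embryos was amplified with the Smart-seq2 protocol, per the labels' protocols. Per the submitters' processing notes, the authors' tools were kallisto, TopHat, Picard, bcl2fastq and DESeq2, without their roles, and the build was mm10. The file names give version 1.18.1 of DESeq2 for the authors' 5 comparison tables. Each deposited table holds, per the file headers, a gene's mean count after division by size factors (a signal), the log2 fold change between stages, also in shrunken form, and its SE. The authors' Wald statistic (a score) and p-value, raw and adjusted, are deposited beside them. Single samples are not in these tables, so depth is unknown and precision rests on the authors' SE.

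From these tables the net log2 fold change was the sum of the 3 C57BL/6J steps. Its variance was the squared SE of the first step minus that of the second plus that of the third, since the zygote terms cancel in a fit with independent stage means. Against a model with 1 dispersion per gene the SE had a median ratio of 1.00 over 7240 genes. That dispersion was taken from the same SE, so the ratio cannot check that the stage means are independent. The two-sided normal p was adjusted by Benjamini-Hochberg over 15900 genes. Levels under 1 (3 counts over a group) were treated as the floor.

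The members, gene lists and named genes were chosen with earlier results of these data known. Named were, among called genes other than predicted ones, the 6 highest and 6 lowest net changes with levels of at least 10 in both stages, the 6 highest levels of genes under 1 in the other stage, up to 3 members per list by smallest p, the 6 highest levels per stage, 6 genes back within 0.5 of 0, and fixed genes such as Nr5a2. Other genes were named after their values were seen. Of 31 lists, the testis and sperm list had 1 of 2 tested members lower (Odf2) and 0 higher, the cumulus list 1 of 1 lower (Cyp19a1) and the blood and oviduct list 1 of 1 higher (Epcam). Alternatives were other SE, thresholds, count minimums, recentring, shrunken fold changes and leaving out predicted genes. Calculations ran in Python 3.11.15 with pandas 2.3.3, numpy 2.4.6 and scipy 1.17.1, and plots in matplotlib 3.10.9.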

Additional observations from a re-analysis of the deposited data

How the results depend on the processing

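With the squared SE of the 3 steps added, which counts the zygote samples again, 1442 genes were higher and 1320 lower. With a Bonferroni threshold the counts were 1393 and 1218, and with a mean count of at least 1000 they were 950 and 1081. Under SE multiplied by 1.5, recentring on the member median, a threshold of 0.01, an absolute change of at least 1, a mean count of at least 10 and leaving out predicted genes, both counts stayed within 1.5 times. So they did under 1 dispersion per gene, which is no separate check because it comes from the same SE. List counts moved too. By more than 1.5 times, 27 of 56 moved with the added SE, 29 with Bonferroni and 14 with SE multiplied by 1.5. With the added SE, 5 chromatin modifiers were higher and 7 lower, 16 ribosome biogenesis factors, 14 translation factors, 3 p53 genes, 1 first-lineage gene, 7 replication genes, 5 mRNA decay genes and 12 RNA polymerase II and Mediator genes were higher, and 3 oxidative phosphorylation genes and 1 junction gene were lower. With it 70 cytosolic ribosomal protein genes, 37 of oxidative phosphorylation, 32 mitochondrial ribosomal protein genes and 12 of the 2-cell transcripts were still higher, and 11 of the subcortical complex and Nlrp list lower. Of 154 named genes, Bonferroni and the added SE each lost 13 calls, in both cases those of Nr5a2, Esrrb, Zscan4d, Omt2b, Ybx1, Chchd4, Tead4, Odf2, Ccne1, Oog3, Pabpc1, Lsm14a and Wee1. SE multiplied by 1.5 lost the first 5 of these, a threshold of 0.01 lost Zscan4d and Ybx1, and an absolute change of at least 1 lost Ybx1. Recentring brought Zp3 past the threshold (adjusted p = 0.0423, Wald test) and moved Leo1 to -0.0010 (adjusted p = 0.999, Wald test) and Npm1 to -0.016, the last 2 not past the threshold. At a mean count of at least 10 the list medians were 0.25 for chromatin modifiers, 0.031 for cyclins, 1.2 for junctions and 2.39 for autophagy and lysosome. At 1000 or more they were -2.58 for oocyte regulators, 0.041 for mRNA decay, -0.31 for 2-cell transcripts, 1.05 for translation factors, -1.58 for chromatin modifiers, -1.09 for nuclear pore, 0.30 for heat shock, 6.11 for autophagy and lysosome, -0.28 for first-lineage regulators and -1.42 for junctions; fewer genes were left in each list. Implied levels were 1.14 times as high when scaled from the SE (463 genes). No paired analysis was possible because the tables hold no values of single samples, and leaving out each replicate was not run for the same reason. Depth is unknown, so the limits of low counts rest on the authors' SE.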

Other observations

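The share of changed genes varied between chromosomes. Of 292 tested members on the X chromosome 42.1% were higher and 22.3% lower, with a median net log2 fold change of 1.07. On chromosome 11, with 594 members, 39.6% were higher and 18.5% lower (median 0.82), and on chromosome 6, with 391 members, 26.6% were higher and 38.1% lower (median -0.65). The differences between chromosomes were not tested.

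The 337 members for which the authors' deposited tables give no p-value had a median net log2 fold change of -1.11 (quartiles -3.03 and 2.29). Among them were well-measured genes of the egg. Oas1e, of the 2'-5' oligoadenylate synthetase family, had a level of 212 in 2-cell embryos and 17174 in MII eggs, and Fbxw20, of an oocyte F-box family, 759 and 10269. Oog4 had 816 in 2-cell embryos and 9862 in MII eggs, and the Hsp90 cochaperone Ptges3 30447 and 12332. The reason for the missing p-values was not tested.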
